A study of Drosophila melanogaster with 2 samples.

Results

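Of the 4293 peaks of tagged Pho that passed the authors' reproducibility threshold (the optimal list), 987 (23.0%) had their summit within 500 bp of annotated transcript starts of at least 2 protein-coding genes on opposite strands. These divergent-promoter peaks made up 38.5% of the 2561 peaks with a protein-coding start within that distance. The other 1574 promoter peaks were one-sided, with starts on 1 strand, and 1732 peaks lay farther from any protein-coding start. The members were chosen by position alone, from the summits and the gene models, and not by their strength. The peaks came from chromatin immunoprecipitation and sequencing of whole Drosophila melanogaster embryos aged 0 to 24 h, of both sexes together. All embryos were of 1 transgenic line that carries Pho with enhanced GFP fused to its C terminus, and the precipitation used an antibody against GFP on chromatin sonicated to 200 to 800 bp. There was 1 group with 2 biological replicates, numbered 3 and 4, called against a control file that both shared. No library of untagged embryos was analysed here, and since the lists carry no read counts, the sequencing depth is unknown. Each library averages over all cells of the embryo and over embryogenesis, so more cells with a bound promoter and more binding per cell cannot be told apart.

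A divergent promoter is a stretch of DNA from which a pair of genes is transcribed in opposite directions, with their 5′ ends facing each other. Such head-to-head pairs are common in the compact fly genome, and many of the genes are housekeeping genes that most cells use. Promoters of this kind often hold the element bound by the factor DREF or motif 1, bound by M1BP. Pho is the zinc finger protein that binds DNA for the Polycomb group, the repressors that hold Hox genes off in the wrong segments, and its core binding motif is GCCAT.

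The DNA between the starts of strong member pairs is shown first, because it is the DNA that both genes share and holds most member summits. The sequences run 5′ to 3′ on the plus strand of dm6, as in the RefSeq genome sequence (release 6), with the minus-strand gene lying to the left and the plus-strand gene to the right. They contain no annotated exon base. Capitals mark GCCAT or CGATA on either strand, so that ATGGC and TATCG are marked too. CGATA ends the DREF element TATCGATA but also occurs without it. The first pair joins Atat, an alpha-tubulin acetyltransferase, and Shc, an adaptor of receptor tyrosine kinases (chr3L:9426759-9427009), with the summit at base 129 of the stretch. Art3 encodes an arginine methyltransferase and mRpS10 a protein of the mitochondrial ribosome (chr3R:15229409-15229664, summit at base 129). Tcs5 encodes a kinase of the complex that modifies transfer RNA and CHMP2B a subunit of the membrane-remodelling complex ESCRT-III (chr3L:5139396-5139618, summit at base 105). Bdp1 encodes a subunit of the RNA polymerase III factor TFIIIB (chr2L:13373891-13374018, summit at base 109). The stretch between Chro, which encodes the chromatin protein Chromator, and Ssl1, a subunit of TFIIH (chr3L:22878985-22879088), holds neither word, and its summit lies outside the stretch, inside Chro.
Atat/Shc: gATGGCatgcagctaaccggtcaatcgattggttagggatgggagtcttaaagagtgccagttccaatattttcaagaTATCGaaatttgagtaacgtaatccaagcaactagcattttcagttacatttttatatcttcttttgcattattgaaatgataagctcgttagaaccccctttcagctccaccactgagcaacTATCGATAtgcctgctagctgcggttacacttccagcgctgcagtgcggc
Chro/Ssl1: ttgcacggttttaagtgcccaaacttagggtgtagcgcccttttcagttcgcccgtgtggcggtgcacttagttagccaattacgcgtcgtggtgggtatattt
Art3/mRpS10: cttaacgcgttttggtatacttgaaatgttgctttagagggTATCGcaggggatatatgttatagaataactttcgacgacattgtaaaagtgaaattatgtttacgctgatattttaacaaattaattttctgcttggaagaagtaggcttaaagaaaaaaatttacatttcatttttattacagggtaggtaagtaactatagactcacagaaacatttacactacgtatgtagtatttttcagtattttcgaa
Tcs5/CHMP2B: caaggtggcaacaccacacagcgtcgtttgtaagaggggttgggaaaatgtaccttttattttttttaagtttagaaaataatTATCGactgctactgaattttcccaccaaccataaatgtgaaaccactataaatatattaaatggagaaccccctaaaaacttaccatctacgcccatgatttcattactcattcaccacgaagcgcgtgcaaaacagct
Bdp1/CG6565: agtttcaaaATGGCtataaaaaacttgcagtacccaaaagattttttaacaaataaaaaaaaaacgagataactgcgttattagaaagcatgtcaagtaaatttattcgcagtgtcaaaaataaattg

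Atat/Shc also holds the whole DREF element between its starts. So did other strong members with wider gaps or with an exon in the gap, such as mRpS23/CenG1A and Fbw5/CG9147, whose sequence is not shown. Among gaps short enough to print and free of exons, Gmd/CG3792 (chr2L:4977024-4977311) and CG10628/Dus3 (chr2L:19758616-19758878) are shown as further examples, in which capitals mark that element alone. Gmd makes the sugar nucleotide for fucosylation, and Dus3 is a dihydrouridine synthase that modifies transfer RNA. The summit lay at base 189 of the Gmd/CG3792 stretch and at base 114 of the CG10628/Dus3 stretch, and the element lay away from the summit in both.
Gmd/CG3792: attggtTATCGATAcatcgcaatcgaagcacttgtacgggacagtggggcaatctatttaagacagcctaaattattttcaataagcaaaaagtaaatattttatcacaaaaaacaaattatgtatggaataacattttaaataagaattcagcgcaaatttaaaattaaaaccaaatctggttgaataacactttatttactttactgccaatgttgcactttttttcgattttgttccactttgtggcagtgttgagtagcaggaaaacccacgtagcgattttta
CG10628/Dus3: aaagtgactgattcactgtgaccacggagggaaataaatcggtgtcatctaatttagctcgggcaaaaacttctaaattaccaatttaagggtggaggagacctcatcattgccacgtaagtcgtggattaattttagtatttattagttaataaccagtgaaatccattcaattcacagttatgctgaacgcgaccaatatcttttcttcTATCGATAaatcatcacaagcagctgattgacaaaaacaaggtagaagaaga

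The strongest divergent-promoter peaks stood among the strongest peaks of the experiment. The signal value is a score per peak deposited by the authors, and its unit is not given. Its scale differs between libraries, so it ranks peaks within a list. At Atat/Shc the pooled signal value was 1559.7, rank 8 of 4293, with 865 in replicate 3 and 694 in replicate 4. Chro/Ssl1 had 1522 on pooled reads, with 877 in replicate 3 and 646 in replicate 4. Art3/mRpS10 had 1442, with 851 and 591 in the same order. Each of these pairs was among the 13 strongest entries of both replicate lists.

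Tcs5/CHMP2B followed with 844 in replicate 3 and 512 in replicate 4, and mRpS23/CenG1A with 753 and 539.8. mRpS23 is another mitochondrial ribosomal protein gene, and CenG1A encodes a protein that activates the GTPase of Arf. Pdrg1/Pal1 had 702 and 544, Fbw5/CG9147 had 709 and 466, and Pex11ab/CG8320 had 608 and 365. Pal1 acts in peptide amidation, Fbw5 is an F-box protein with WD repeats, and Pex11ab belongs to the peroxin 11 family of peroxisome division. The other 7 of the 15 strongest members ranked 39 to 51 and stood at mRpL23/CG9004, Bdp1/CG6565, Mkk4/SLIRP2 (Mkk4 is a kinase upstream of JNK), CG32022/CG6511, DUBAI/Tmem18, CG5757/CG5098 and CG8372/CG8360. Their values on pooled reads ran from 825 to 897.

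Member signal values on pooled reads ran from 91.9 to 1559.7, with quartiles of 119 and 247 and a median of 163. The members nearest that median were CG31650/CG33995, TH1/mei-41 and CG10435/Pbp95. The median was 144 for one-sided promoter peaks, 135 for peaks away from protein-coding starts and 145 over the optimal list, and these distributions overlap widely. The median rank of the members was 1772, against 2164 for one-sided and 2402 for the remaining peaks. In the replicates' own lists the order of the classes was the same, with medians of 103, 90.8 and 83.7 in replicate 3 and of 66.6, 58.5 and 56.1 in replicate 4. Peaks share libraries and control, and no test across peaks was made.

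The share of divergent-promoter peaks was higher in the upper ranks. It was 30.0% in ranks 1 to 100 (95% Wilson interval 21.9 to 39.6), 29.0% in ranks 101 to 500 and 30.2% in ranks 501 to 1000. It was 25.9% in ranks 1001 to 2000, 20.5% in ranks 2001 to 3000 and 17.5% in ranks 3001 to 4293 (15.5 to 19.6). These intervals, like all others given, cover counting error only. Both replicates gave the same picture, with 27.0% and 30.0% in their first 100 entries and 18.3% and 16.3% in the last band, for replicates 3 and 4. The share of one-sided peaks ran from 33.0% to 42.0% over the bands and was 36.7% in the last.

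**Figure D1:**
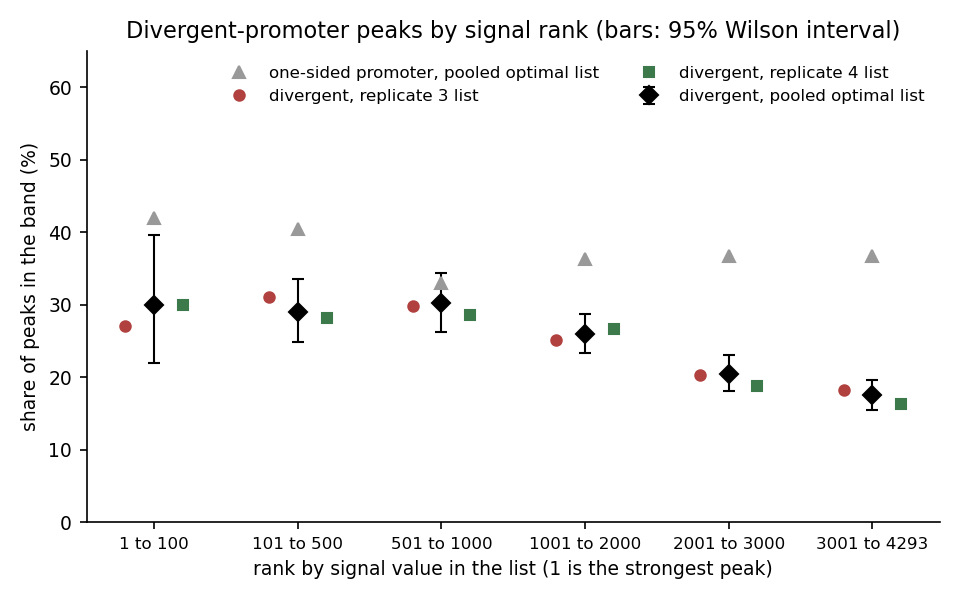
Share of peaks (y axis, percent) that are divergent-promoter peaks in bands of signal rank (x axis), for the pooled optimal list (diamonds, bars are 95% Wilson intervals) and for as many top entries of each replicate (circles and squares), with one-sided promoter peaks as triangles. The divergent share is 30.0% in the first band and 17.5% in the last.

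Both libraries held nearly all members. A summit lay within 100 bp of the member summit in the full list of replicate 3 for 975 members (98.8%) and of replicate 4 for 953 (96.6%). Both replicates had one for 942 members (95.4%, interval 94.0 to 96.6), against a background of 94.4% over all optimal peaks. The optimal list came from the pooled reads of the same libraries, so a nearby summit in each is partly built in. The 1 member with a nearby summit in neither was the weaker of 2 members at CG9393/Vps45, at rank 3319. The stronger member there, at rank 810, was found in both, with 155 in replicate 3 and 97.4 in replicate 4. Over the 942 members, signal values in replicate 3 were a median of 1.54 times those in replicate 4, and the Spearman correlation between the libraries was 0.806, over peaks that share a control file. It was 0.739 for one-sided peaks and 0.666 for the rest. The members farthest from the common ratio were Strip/Gtpx, at 113 in replicate 3 and 16.7 in replicate 4, and Pop2/CG6928, at 68.5 and 159. The replicate summit nearest to Strip/Gtpx in replicate 4 lay 100 bp from the pooled summit, and that of Pop2/CG6928 82 bp from it. Pop2/CG6928 carries 2 members, and the values given are those of the weaker, at rank 1948. The stronger, at rank 531, had 155 in replicate 3 and no summit within 100 bp in replicate 4.

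**Figure D2:**
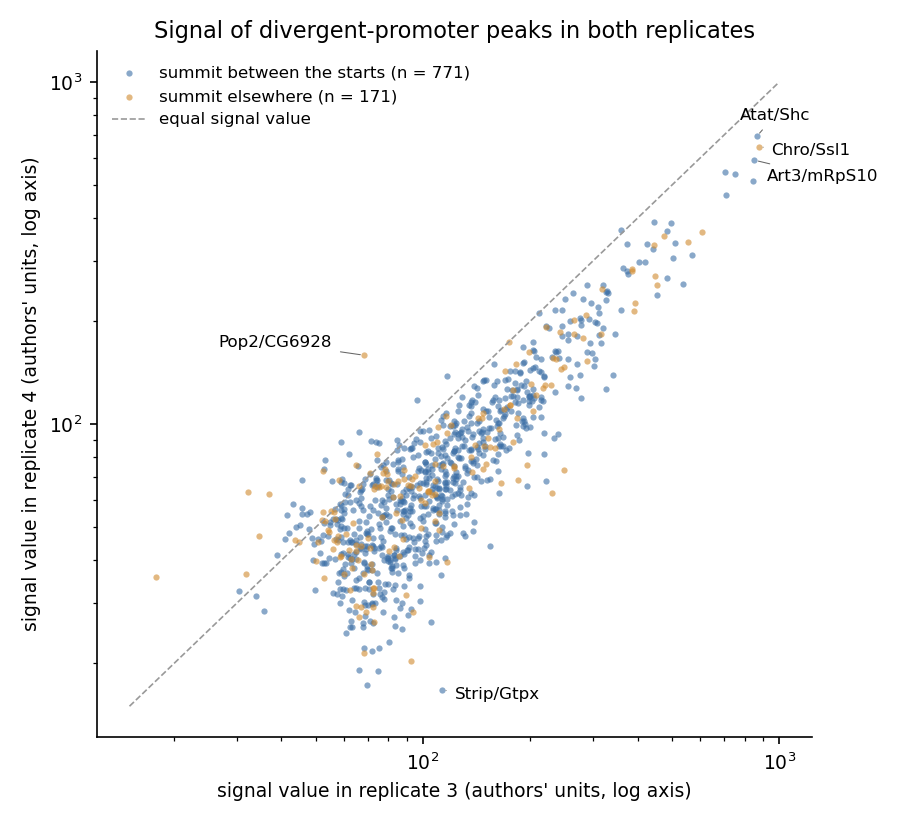
Signal value of each member in replicate 3 (x axis) and replicate 4 (y axis), both on log axes in the authors’ units, coloured by whether the summit lay between the starts, for the 942 members with a summit within 100 bp in both. Most points lie below the dashed line of equal values, and Strip/Gtpx and Pop2/CG6928 stand apart from the cloud.

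At 965 members (97.8%) the nearest starts on the strands faced away from each other, and at 22 the 5′ ends overlapped or coincided. The spacing of the starts at the 965 head-to-head members had a median of 280 bp, quartiles of 202 and 375 bp, and a range of 1 to 813 bp. The smallest spacings included 1 bp at Atg6/Pisd and 6 bp at CG3032/CG4593. Atg6 is the fly Beclin, which acts at the start of autophagy, and Pisd makes phosphatidylethanolamine. Both of these summits lay inside the minus-strand gene, and signal values were 64.8 in replicate 3 and 44.4 in replicate 4 at Atg6/Pisd and 154 and 86.0 at CG3032/CG4593. The largest spacings were 813 bp at CG4297/MED15, 756 bp at slv/sut1 and 717 bp at CG2246/CG31021, with summits between the starts. MED15 is a Mediator subunit, and slv and sut1 both encode sugar transporters. CG4297/MED15 was weak in both libraries, with 33.9 in replicate 3 (rank 9045) and 31.5 in replicate 4 (rank 5910), against 131 on pooled reads. The 22 overlapping pairs had a median overlap of 198 bp and at most 282 bp, and 7 of them had the summit within the overlap or at the shared start.

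The summit lay between the starts at 800 of the 965 head-to-head members (82.9%, interval 80.4 to 85.1), inside the minus-strand gene at 93 and inside the plus-strand gene at 72. A wider gap takes up more of the window around the starts, and the share went from 39.5% at spacings of 1 to 100 bp and 70.5% at 101 to 200 bp to 89.3% at 201 to 300 bp and 94.6% at 401 to 500 bp. At spacings over 500 bp all 81 summits lay between the starts, which the rule requires there. On the 921 members that could be placed in both libraries, the summit lay between the starts at 82.4% in replicate 3 and 81.4% in replicate 4.

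Within the gap, summits stood at no fixed point. When the gap was divided into 5 equal parts from the minus-strand start to the plus-strand start, the 800 summits fell into them at 13.8%, 20.0%, 23.5%, 24.0% and 18.8%. At spacings of 201 to 300 bp the middle part held 27.5% (interval 22.6 to 33.1) of 276 summits. At 401 to 500 bp it held 7.62% (3.91 to 14.3) of 105, while the end parts held 19.0% and 29.5%. Some pairs, such as Fur1/Vps33B at 432 bp, carry 2 member summits, and summits of the list lie at least 199 bp apart. Both summits of such a pair cannot fall in the middle part, and the effect of this on the shares was not tested. At 301 to 400 bp the middle part held 22.4% of 205 summits, so the low share was seen at 401 to 500 bp and not at 201 to 300 or 301 to 400 bp. At 501 to 1000 bp it held 23.5% of 81, but there the distance rule itself keeps summits away from the ends of the gap. The distance from the summit to the nearer start was 74.0 bp at 201 to 300 bp and 86.0 bp at 401 to 500 bp (medians). Art3/mRpS10 had its summit 129 bp from one start and 128 bp from the other, and Atat/Shc 129 and 123 bp. Fbw5/CG9147 had its summit 2 bp from the CG9147 start, and mRpS23/CenG1A 386 bp from the mRpS23 start and 106 bp from that of CenG1A. The nearer start was on the minus strand at 459 members and on the plus strand at 504. For 783 of the 921 members placed in both libraries (85.0%) it was the same start in the pool and in each replicate. Replicate summits of 1 member lay a median of 24.0 bp apart, so offsets of that size are within the error of the position.

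**Figure D3:**
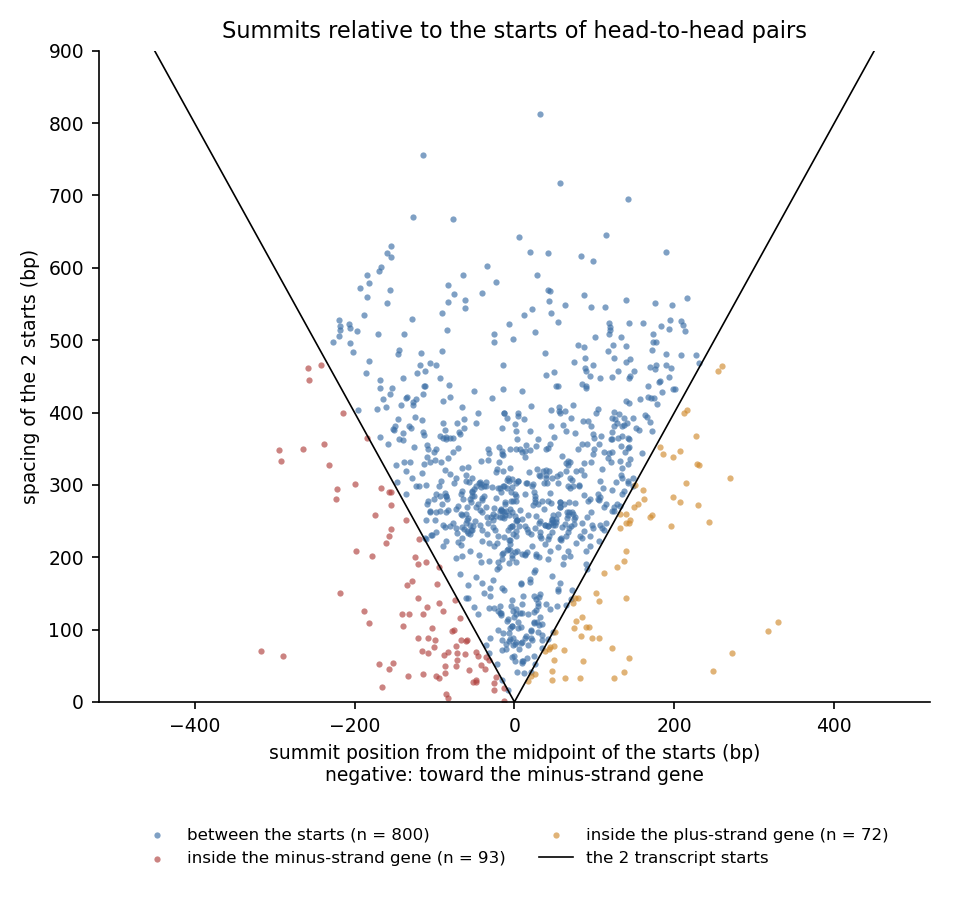
Position of each member summit relative to the midpoint of the starts (x axis, bp, negative toward the minus-strand gene) against the spacing of the starts (y axis, bp) for the 965 head-to-head members. Lines mark the starts, and 800 summits lie between them, 93 inside the minus-strand gene and 72 inside the plus-strand gene.

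Member summits lay closer to a start than one-sided summits did, with a median of 69.0 bp to the nearer start against 124 bp. A peak at a divergent promoter can fall near either of its starts, which by itself shortens this distance. The farther start lay at a median of 205 bp. Summits stood upstream of or at their nearest start at 82.6% of members and 81.1% of one-sided peaks, and 1 to 200 bp upstream of it at 78.1% and 53.8%. An annotated exon held the summit at 24.5% of members and 23.1% of one-sided peaks. It did so at 9.25% of members with the summit between the starts, where exons of other transcripts reach in, and at 93.3% of the others.

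The members nearest the limit of the rule had signal values from below the median to a little above it. Just inside it were THADA/Hers (500 bp to the farther start, signal value 113 on pooled reads), Nbr/Noc2 (495 bp, 118) and slv/sut1 (492 bp, 189). Just outside were Abp1/Tgi (502 bp, 138), CG13038/CG13058 (506 bp, 151) and ecd/CG13806 (506 bp, 128). With a limit of 250 bp there were 610 members, and among the 2146 strongest optimal peaks 598.

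Counted from the annotation, the gene models held 2667 head-to-head pairs with starts up to 1000 bp apart, and 36.1% of them (962 pairs, interval 34.3 to 37.9) carried an optimal peak within 500 bp of both starts. The share was 36.1% with as many top entries of replicate 3 and 34.5% with those of replicate 4. It was highest at the middle spacings, with 53.9% of 542 pairs at 201 to 300 bp and 51.8% of 400 pairs at 301 to 400 bp. It was 37.3% of 429 pairs at 1 to 100 bp, 39.5% of 357 pairs at 101 to 200 bp and 33.7% of 267 pairs at 401 to 500 bp. The 95% intervals of the middle bands, 49.7 to 58.0 and 46.9 to 56.6, did not overlap those of the bands on either side, 34.6 to 44.7 and 28.3 to 39.6. The lower side depended on the repeated histone genes, which make up 38 of the 357 pairs at 101 to 200 bp and carried no peak. How reads were placed on their near-identical copies is not given, and its part in this was not tested. Without the histone genes, an alternative added after seeing the data, the share at 101 to 200 bp was 44.2% of 319 pairs (38.9 to 49.7). That interval overlaps those of the middle bands at their lower ends, while 1 to 100 bp gave 37.6% (33.2 to 42.3). Both replicates gave this order, with 53.5% and 50.2% at 201 to 300 bp and 33.0% and 31.5% at 401 to 500 bp.

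At 501 to 1000 bp the share was 10.7% of 672 pairs, but there the distance rule leaves room only in the middle of the gap. With a summit within 500 bp of either start it was 32.9%, and over all spacings 42.4%. Median spacing was 264 bp for pairs with a peak and 362 bp for pairs without. A further 537 pairs (20.1%) had no optimal peak but a summit by the same rule in the full list of each replicate. Those lists hold background as well as peaks, so weak binding and background cannot be told apart in such pairs. The remaining 1168 pairs had none in at least 1 replicate.

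**Figure D4:**
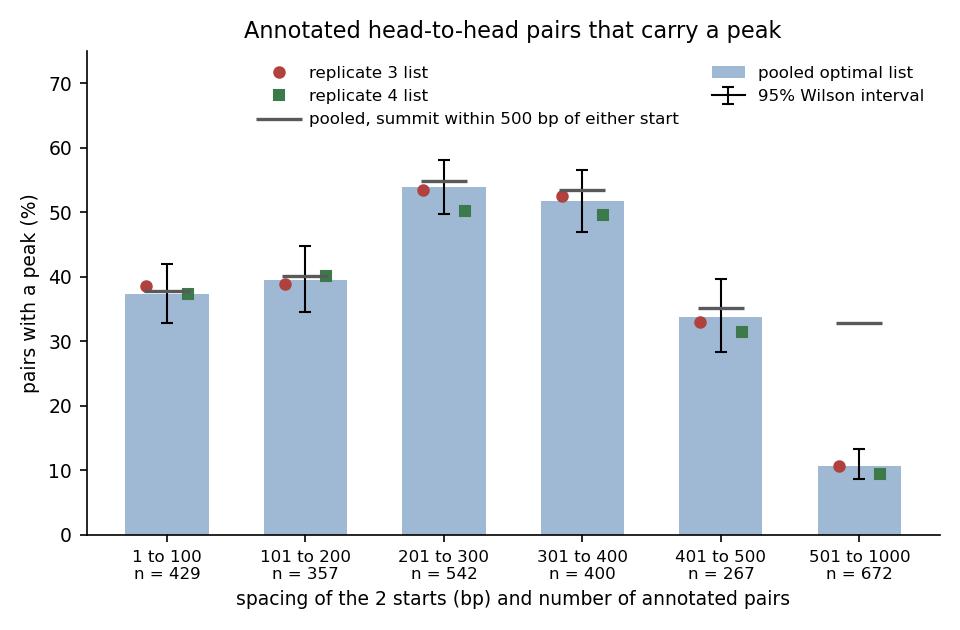
Percent of annotated head-to-head pairs that carry a peak (y axis) by spacing of the starts (x axis, bp, with the number of pairs). Bars are the pooled optimal list with 95% Wilson intervals, circles and squares the top entries of replicates 3 and 4, and dashes count a summit near either start. The bars at 201 to 300 bp (53.9%) and 301 to 400 bp (51.8%) stand above the others.

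A pair carried 2 member peaks in 85 cases, and none carried more. The strongest were CG32022/CG6511 (signal values 849.6 and 210.1 on pooled reads), Fur1/Vps33B (802 and 368), CG5611/Mtl (792 and 211), RpS27/Nup37 (764 and 92.3) and Lon/PIG-F (751 and 163). Fur1 is a furin protease, Vps33B a vesicle tethering protein and Lon the mitochondrial protease. Both summits of such a pair lay 199 to 311 bp apart, with a median of 204 bp. Neighbouring optimal summits anywhere in the list lay at least 199 bp apart too, so the distance within these pairs sits at the lower limit of the list. The 85 cases are annotated pairs, and pairs that share a gene, such as Ndfip/CG7484 and Krn/CG7484, count separately for the same 2 peaks.

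Genes in head-to-head pairs carried peaks more often than other genes. An optimal summit lay within 500 bp of a start of 2098 of the 5052 genes in such pairs (41.5%, interval 40.2 to 42.9) and of 1137 of the 8893 other genes (12.8%, 12.1 to 13.5), against a background of 23.2% over all 13945 protein-coding genes. A peak between facing starts counts for both genes of the pair. Within 150 bp, where fewer peaks reach both starts, the shares were 26.9% and 7.84%. With 1 start per gene, the most upstream, they were 38.9% and 11.1%. Replicate 3 alone gave 41.6% and 12.8%, and replicate 4 alone 40.4% and 12.4%. Members touched 1858 distinct genes, 13.3% of all protein-coding genes, and 50 members touched more than 2 genes each. The highest number was 10, at the mod(mdg4) locus, whose trans-spliced gene models start close together on both strands.

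Genes at members had a median length of 2.55 kb, against 2.13 kb for head-to-head genes without a member peak and 2.08 kb for all other genes. Those known by a CG number alone made up 29.7%, 37.8% and 48.8% in the same order. By chromosome arm, divergent-promoter peaks were 44.8% of the promoter peaks on 3R, 40.3% on 2L, 38.1% on 3L, 35.7% on 2R, 31.6% on X and 2 of 11 on chromosome 4.

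Genes of the basic cell machinery supplied many members, while tissue-restricted families supplied few. At least 1 gene of 15 housekeeping lists stood at 227 members (23.0%), against 452 of the 2667 annotated pairs (16.9%). The share of members counts peaks, while the share of pairs counts each annotated pair once. A pair with several member peaks thus counts more than once among the members, and the shares are not directly comparable. Of all head-to-head genes 36.6% stood at a member peak, and the counts below are read beside that value, with no test.

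Genes of both ribosomes were among the largest groups. Of the 93 cytoplasmic ribosomal protein genes 56 were head to head, and 32 of these (57.1%, interval 44.1 to 69.2) stood at a member peak. The strongest were RpS27 at RpS27/Nup37, with 442 in replicate 3 and 325 in replicate 4, and RpL7 at Ripalpha/RpL7, with 385 and 281. Ribosomal protein genes outside head-to-head pairs carried peaks as well, 25 of 37 (67.6%), so for this family peaks were not limited to divergent promoters. Of the mitochondrial ribosomal protein genes 33 of 58 head-to-head genes (56.9%, 44.1 to 68.8) stood at a member, led by mRpS10 and mRpS23. Other parts of translation had lower counts. Aminoacyl-tRNA synthetase genes stood at members in 11 of 24 cases, led by SerRS (316 in replicate 3 and 183 in replicate 4), whose 5′ end overlaps that of CG17260 by 33 bp, and by IleRS (215 and 142). Translation initiation factor genes did so in 6 of 21, led by eIF1, which shares its promoter with the ribosomal protein gene RpL28 (175 and 143), and eIF4EHP, a cap-binding repressor of translation (191 and 118).

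The list of vesicle tethering and sorting also takes in Rab genes and Sec61alpha, Sec61gamma and Sec63, which act in protein transport into the endoplasmic reticulum. Its genes stood at members in 31 of 54 head-to-head cases (57.4%, 44.2 to 69.7), led by Vps33B at Fur1/Vps33B (503 in replicate 3 and 305 in replicate 4) and the ESCRT-II gene Vps36 (259 and 200.1). Vacuolar ATPase subunit genes, whose pump acidifies organelles, did so in 9 of 14 (interval 38.8 to 83.7%), led by Vha16-5 (215 and 155) and Vha100-2 (229 and 130.2). Autophagy genes did so in 8 of 16 (28.0 to 72.0%), led by Atg17 (203 and 174) and Atg2 (177 and 121). The cytosolic CCT chaperonin, which folds actin and tubulin, had 5 of 7 (35.9 to 91.8%), led by CCT8 (142 and 85.8), and by CCT3, a weak peak (104 and 39.3) that ranked 4074 in replicate 4. The intervals of the autophagy and CCT genes hold the 36.6% of all head-to-head genes.

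Oxidative phosphorylation genes stood at members in 16 of 45 head-to-head cases (35.6%), led by the complex I genes ND-MWFE (282 in replicate 3 and 232 in replicate 4) and ND-ASHI (269 and 128). Proteasome subunit genes did so in 10 of 26, led by Rpn5 (281 and 179) and Rpn6 (200.3 and 98.3), both of the lid. These shares lie close to the 36.6% of all head-to-head genes.

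Genes for transcription and RNA processing also lay near that value. Mediator subunit genes had 8 of 19, led by MED30 (405 in replicate 3 and 298 in replicate 4) and MED27 (246 and 181). General transcription factor and RNA polymerase genes had 14 of 36, led by the shared polymerase subunit gene Polr2H (264 and 242) and by Polr2J (202 and 117). Spliceosome genes had 13 of 33, led by the splicing factor genes SF2 (170.3 and 135) and Prp31 (142 and 100.5). Nucleoporin genes had 5 of 18, led by Nup37 at RpS27/Nup37 and Nup98-96 (265 and 184). DNA replication genes had 9 of 24, led by dup, the fly Cdt1 (116 and 108), and PolE4 (126 and 79.9).

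Polycomb group and associated genes stood at members in 7 of 15 head-to-head cases (46.7%, interval 24.8 to 69.9), an interval that holds the value of all head-to-head genes. The strongest were Su(z)12, a subunit of the methyltransferase complex PRC2, at Su(z)12/Pfdn6 (236 in replicate 3 and 155 in replicate 4), and Sfmbt, the partner of Pho in the complex PhoRC, at Sfmbt/CG5439 (204 and 105). E(z), the methyltransferase itself, had a weaker peak (93.2 and 69.0), 17 bp inside its own start. Outside head-to-head pairs 8 of 14 Polycomb group genes (57.1%) carried peaks, against 12.8% of all genes outside such pairs. For this list too, peaks were thus not limited to divergent promoters. The start nearer to the summit was that of the Polycomb gene at 6 of the 7 that stood at members (interval 48.7 to 97.4%). Over the housekeeping lists the listed gene had the nearer start for 116 of 210 genes (55.2%, 48.5 to 61.8). It was 26 of 32 for cytoplasmic ribosomal proteins, 13 of 31 for vesicle tethering and sorting and 4 of 14 for general transcription factors and RNA polymerases. Many of the peaks named above for a listed gene thus lay closer to its partner, as at Vha16-5/CG12299, with the summit 293 bp from the start of Vha16-5 and 9 bp from that of CG12299.

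No gene of the lists of developmental transcription factors and Hox genes stood at a member, and few of them are arranged head to head. Of the 76 developmental transcription factor genes listed, 2 were in such a pair and neither was at a member, and none of the 8 Hox genes was. Chemosensory receptor genes stood at members in 2 of 26 head-to-head cases (7.69%, interval 2.14 to 24.1), Ir60e (67.0 in replicate 3 and 60.7 in replicate 4) and Ir60b (65.7 and 40.1), in both cases with the start of the other gene of the pair nearer to the summit. Cuticle protein genes had 0 of 11 (up to 25.9%). The repeated histone genes, 84 of 111 head to head, had 0 (up to 4.37%). The part that their tandem copies play in this was not tested. The single-copy variant gene His2Av did have a member, ball/His2Av, with 198 in replicate 3 and 163 in replicate 4.

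**Figure D5:**
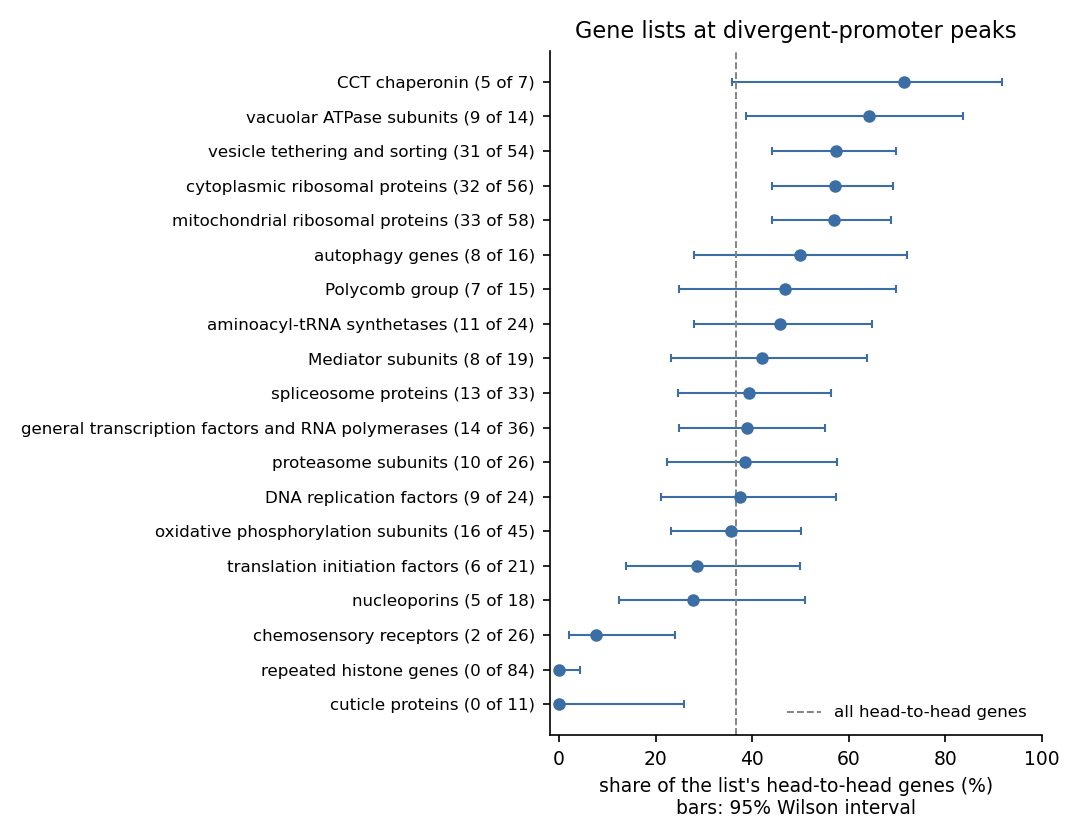
Share of each list's head-to-head genes that stand at a member peak (x axis, percent, bars are 95% Wilson intervals, counts in parentheses), for the 19 lists with at least 7 such genes. The dashed line marks 36.6%, the value over all head-to-head genes.

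Few annotated pairs join genes of 1 housekeeping list. Both genes stood on housekeeping lists in 21 of the 2667 annotated pairs and on the same list in 4, and 3 of these 4 carried a member peak. Of all annotated pairs 36.1% did, and 4 pairs are too few to set apart from that share. Both genes were on housekeeping lists at 11 members, a count of peaks in which a pair with several peaks counts more than once. The 3 were RPA1/Mcm2, genes of DNA replication (123 in replicate 3 and 62.5 in replicate 4), Exo84/Vps2 (109 and 39.5) and Cog3/Sec5 (87.5 and 30.0), genes of vesicle traffic. Taf10b/Taf10, a pair of TFIID subunit genes with starts 45 bp apart, had none.

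Motifs within 50 bp of the summit, on both strands, differed between the classes of peaks in their shares. The DREF element TATCGATA lay there at 70 members (7.09%, interval 5.65 to 8.87), at 4.38% of one-sided peaks (interval 3.48 to 5.51) and at 0.289% of the peaks away from protein-coding starts, with 3.35% over all optimal peaks. CGATA, which every TATCGATA contains and which also occurs in sites of the factor BEAF-32, was at 32.1%, 26.0% and 11.8% in the same order. It was at 317 members, most of them without a whole TATCGATA in the window. GGTCACAC of motif 1 was at 3.55%, 2.80% and 0.115%. The Pho core GCCAT was at 14.8% of members (interval 12.7 to 17.1), 17.3% of one-sided peaks (15.5 to 19.2) and 260 of the 1732 remaining peaks, and AGATGGC, which contains that core on the other strand, was at 1.72%, 2.35% and 2.37%. As shares, TATCGATA and CGATA were more frequent at members than in the other classes, while the Pho core was not. Median GC content of these windows was 36.6% at members, 39.6% at one-sided and 34.7% at the remaining peaks, and members lay closer to a start. The part of both in the shares was not tested.

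GAGAG, bound by the GAGA factor, was at 7.80% of members, 12.1% of one-sided peaks and 12.2% of the remaining peaks. The TATA box word TATAAA was at 17.9%, 14.0% and 18.0%, and the E-box words CAGCTG and CACGTG were at 6.99%, 6.67% and 3.41% and at 1.32%, 1.59% and 1.10%. Among members, the 197 strongest had TATCGATA at 4.57% (interval 2.42 to 8.45) and CGATA at 18.3% (13.5 to 24.3), and the 197 weakest had them at 6.60% (3.90 to 11.0) and 34.5% (28.2 to 41.4). GCCAT was at 15.7% and 11.2%, with overlapping intervals. Windows of the 197 strongest were poorer in GC, with a median of 31.7% against 38.6%, and had TATAAA at 24.9% against 16.2%.

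The DREF element was found at similar shares, with overlapping intervals, in head-to-head pairs with a peak and in those without. Within 50 bp of the midpoint of the starts it was at 4.68% of the 962 pairs with a peak (interval 3.51 to 6.20), at 4.99% of the 1705 pairs without (4.05 to 6.12) and at 4.87% of all pairs. Anywhere between starts 101 to 500 bp apart it was found in 18.8% of 730 pairs with a peak (16.1 to 21.8) and 17.0% of 798 pairs without (14.6 to 19.8), leaving out the repeated histone genes. CGATA was in 62.9% and 61.5% and GCCAT in 33.0% and 35.1% of these gaps, so the words marked in the printed sequences are common between facing starts whether or not a peak is there. These pooled shares hide differences in both directions by spacing. CGATA was in 62.7% of gaps with a peak and 51.2% without at 201 to 300 bp, and in 69.1% and 64.8% at 301 to 400 bp. It was in 51.1% and 55.6% at 101 to 200 bp and in 67.8% and 78.5% at 401 to 500 bp. TATCGATA was in 18.8% and 13.2% at 201 to 300 bp but in 10.6% and 16.3% at 101 to 200 bp. A match to TATCGATA lay within 200 bp of the summit at 201 head-to-head members, at a median of 69.5 bp from it, and for 158 of them (78.6%) between the starts. For GGTCACAC 73 of 143 matches (51.0%) and for AGATGGC 35 of 55 (63.6%) lay between the starts. These numbers count members, so a pair with 2 member peaks, such as Kap-alpha3/Son, can enter the same match more than once. No background is given for how much of the window lies between the starts.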

How the data were processed

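Peak lists on dm6 were deposited by the authors for each replicate, for the pooled reads and as an optimal list. The authors deposited a signal value per peak and a summit offset, and per the file headers of the texts deposited with the lists, peaks were called against 1 shared control file. What is not given in the sources used here is the aligner, the peak caller, its threshold on the irreproducible discovery rate and the unit of the signal. Those of the replicates and the pool hold 30000 entries, background included. Lists on dm3 were not used.

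Summits (1-based) were compared with transcript starts of Ensembl release 115 on 6 arms, 19607 distinct starts in all. For each member the nearest start on each strand defined the pair. Replicate summits were matched within 100 bp, or each replicate was cut to its 4293 strongest entries. Python 3.11.15 and numpy 2.4.6 were used, and the position rule was checked on simulated data. There is 1 group, so no test was made, and the 2 libraries give the error. The members, motifs and 21 gene lists (by symbol) were chosen with earlier results of these data known. Named genes are the 15 strongest members, those nearest the median, the extremes of spacing and distance, pairs with 2 peaks (the 5 strongest), pairs on 1 list and the leading 2 genes of each list. Strip/Gtpx, Pop2/CG6928, CG9393/Vps45, His2Av, E(z), Taf10b/Taf10 and the positions quoted at single pairs were chosen after their values were seen. One of the members with the smallest spacings is not reported here.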

Additional observations from a re-analysis of the deposited data

How the results depend on the processing

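Each of 8 results was recomputed under alternatives chosen at the start, 75 values in all, of which 47 stayed within the counting interval or replicate spread of the value given (for counts, within 1.5 times). RefSeq gene models and the list without repeated histone genes moved none of the 8, though without those genes the share of pairs with a peak at 101 to 200 bp was 44.2% in place of 39.5%, chosen after seeing the data. A limit of 250 bp gave 610 members, 28.1% of promoter peaks, 32.5% of pairs with a peak, a median spacing of 234 bp and a median rank of 1565. A limit of 1000 bp gave 41.5% of promoter peaks, 33.7% of pairs (here up to 2000 bp apart), 308 bp and rank 1832. With only the most upstream start of each gene the shares were 42.4% of promoter peaks and 77.7% of summits between the starts, with a spacing of 272 bp, and the outermost pair of starts gave 92.3% between. The 2146 strongest peaks gave 598 members, 43.3% of promoter peaks, 22.8% of pairs, 278 bp, rank 1004 and 97.8% found in both replicates. Keeping the strongest summit of overlapping peaks gave 277 bp and rank 1688. Matching within 50 bp found 76.7% of members in both replicates, and within 200 bp 99.2%. TATCGATA was at 3.04% of members within 25 bp and at 12% within 100 bp, since a wider window holds more sequence.

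Leaving out 1 replicate, with the other cut to 4293 entries, gave 951 to 991 members, 37.6% to 38.8% of promoter peaks, 34.5% to 36.1% of pairs with a peak, 80.6% to 83.2% of summits between the starts, a spacing of 280 to 281 bp, median ranks of 1720 to 1731 and TATCGATA at 6.76% to 6.83%. The share found in both replicates has no such value. No paired analysis was possible because there is 1 group. Depth is unknown, and without an untagged library the signal of Pho cannot be told apart from precipitation of open promoters.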
